A study of Mus musculus with 6 samples.

Results

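Interferon-stimulated genes are the genes that cells switch on after sensing interferon. The set described here holds 41 listed mouse genes of that kind outside antigen processing. Members were found by the gene symbol that the platform annotation gives each probe, and each gene was represented by its brightest probe by mean log2 intensity over the 6 arrays. Of the 41 genes, 40 had a probe under their symbol among 46237 probes, and Ifi44 was not analysed here. The 40 genes carried 66 probes in all, and 17 of them had more than 1. The data are 6 single-colour Illumina bead arrays of RNA from sorted haematopoietic stem cells, 3 from Matn4-/- cells and 3 from wt cells. Matn4 encodes matrilin-4, an adaptor protein of the extracellular matrix.

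The Matn4-/- donor carried the CD45.2 allele of the leukocyte surface protein CD45 and the wt donor carried CD45.1.2, while recipients carried CD45.1. Bone marrow of both genotypes was mixed 1:1 and given together to recipients irradiated with 2 doses of 500 rad. The labels of all samples give the strain as C57/BL6, the sex as female and an age of 12 weeks. Cells of both genotypes were sorted 4 weeks after the transplant as LSK CD150+CD48- cells, that is, cells with the Kit and Sca-1 markers of early progenitors and the surface pattern of long-lived stem cells. Both groups had thus been through irradiated hosts, and no array held cells from undisturbed marrow, so the wt level below is that of transplanted wt cells. The design text calls the 3 arrays of a genotype biological replicates, and no label says whether they came from separate recipients. If they did not, the p-values measure only the spread between these RNA samples. The sources used here do not say which part of Matn4 was deleted.

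As background, type I interferons bind the receptor formed by Ifnar1 and Ifnar2, and interferon gamma binds the one formed by Ifngr1 and Ifngr2. The kinases Jak1 and Tyk2 then activate transcription factors, among them Stat2. Stat2 and Irf9 are parts of the complex ISGF3, which binds the interferon-stimulated response element (ISRE). The response to interferon gamma acts largely through another DNA element, the gamma-activated site (GAS). In mouse haematopoietic stem cells, interferon drives dormant cells into the cell cycle, and prolonged exposure exhausts them. Stem cells are also known to keep some interferon-stimulated genes at a steady level without infection.

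The upstream sequences of the members were searched for the core letters of the ISRE and the GAS. RefSeq windows from 250 bases before to 50 after the gene start (GRCm38.p6) were at hand for 32 of the 41 listed genes. The letters GAAANNGAA, the core shared by ISRE sites, were found on either strand, in at least 1 window, for 20 of the 32 genes (62.5%), against 2638 of 27025 genes in the RefSeq table (9.76%). The letters TTCNNNGAA, the GAS core, were found on either strand for 10 of the 32 (31.2%), against 9.55% of all genes in the table. Matches of the GAAANNGAA and TTCNNNGAA letters overlapped in the windows of Ifitm3 and Bst2. Letter matches are a description of the window and not a measured binding site. 6 of the matched stretches follow, 5′ to 3′ along the gene's strand, with the matches to GAAANNGAA or its reverse complement in capitals. They are shown because, by their brightest probes, the first 3 genes lay above the background on every array and the last 3 on none, while all carry the same core.
Ifit3: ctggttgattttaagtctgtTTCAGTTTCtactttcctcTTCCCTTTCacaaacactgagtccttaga
Isg15: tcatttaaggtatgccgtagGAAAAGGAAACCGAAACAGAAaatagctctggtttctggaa
Igtp: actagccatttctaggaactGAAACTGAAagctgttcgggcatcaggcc
Ifit1: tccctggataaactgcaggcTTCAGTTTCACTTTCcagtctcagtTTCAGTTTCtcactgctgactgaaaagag
Ddx60: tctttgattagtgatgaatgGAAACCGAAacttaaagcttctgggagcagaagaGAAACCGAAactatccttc
Cxcl10: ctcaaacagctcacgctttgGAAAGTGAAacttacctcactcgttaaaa

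The Ifit3 stretch is chr19:34583388-34583455 on the plus strand and ran from -141 to -74 of the gene start, and the Ifit1 stretch is chr19:34640760-34640833 on the same strand, from -129 to -56. The Isg15 stretch is chr4:156200856-156200916 on the minus strand, from -98 to -38. The Igtp stretch is chr11:58199502-58199550 on the plus strand, from -54 to -6. The Ddx60 stretch is chr8:61928014-61928086 on the plus strand, from -73 to -1. The Cxcl10 stretch is chr5:92349074-92349122 on the minus strand, from -233 to -185. Ifit1 held 3 overlapping or neighbouring matches and Isg15 also held 3, yet their probes stood on opposite sides of the background. Grouped by level, 11 of 17 members above background on all arrays had the letters, 5 of 10 of those above on 1 to 5 arrays and 3 of 4 of those above on none. The exception among these 4 was Irf7.

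The deposited values are intensities on a linear scale that still contain the arrays' background, so the level of a silent gene had to be measured. Female cells lack the Y chromosome, and the 12 probes of Y-linked genes read between 93.1 and 142. A member is called above background on an array where it exceeded the brightest of these probes on that array, which was 142, 134 and 124 on Matn4-/- replicates 1, 2 and 3 and 127, 142 and 131 on wt replicates 1, 2 and 3. Matn4-/- replicate 3 stood apart, with a mean rank correlation of 0.745 with the other arrays over all probes, against 0.852 to 0.866 for the rest. Of 6 listed genes of the sorted population with a probe, Kit, Slamf1 (CD150), Procr, Mecom and Tek were above background on all 6 arrays. Hlf was above it on 1 array, Matn4-/- replicate 3, with 106 to 129 in Matn4-/- and 97.7 to 99.9 in wt. Cd48, which the sort selected against, was above it on none, with 112 to 120 in Matn4-/- and 115 to 119 in wt. Of 35 markers of other blood cell types with a probe, 10 were above background on all 6 arrays, 13 were above it on none, and their summed intensity was 6362 to 7905 in Matn4-/- and 6103 to 7616 in wt. The 10 were Flt3, Lyz2, Mpo, Cd79b, Nkg7, Hbb-b1, Pf4, Itga2b, Gp9 and Mcpt8. Of 6 markers of dendritic cells, including the plasmacytoid cells that make much interferon, Flt3 was above background on all 6 arrays, Siglech and Itgax on 1 each, and Ccr9, Cd209d and Ly6d on none. The part of other cells in the levels below was not tested. In bulk RNA, fewer cells of a type and less RNA per cell cannot be told apart. The Matn4 probe that was above background read 168, 318 and 331 in Matn4-/- and 310.3, 158 and 378 in wt, so its groups overlapped, and it does not check the genotype labels.

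**Figure D1:**
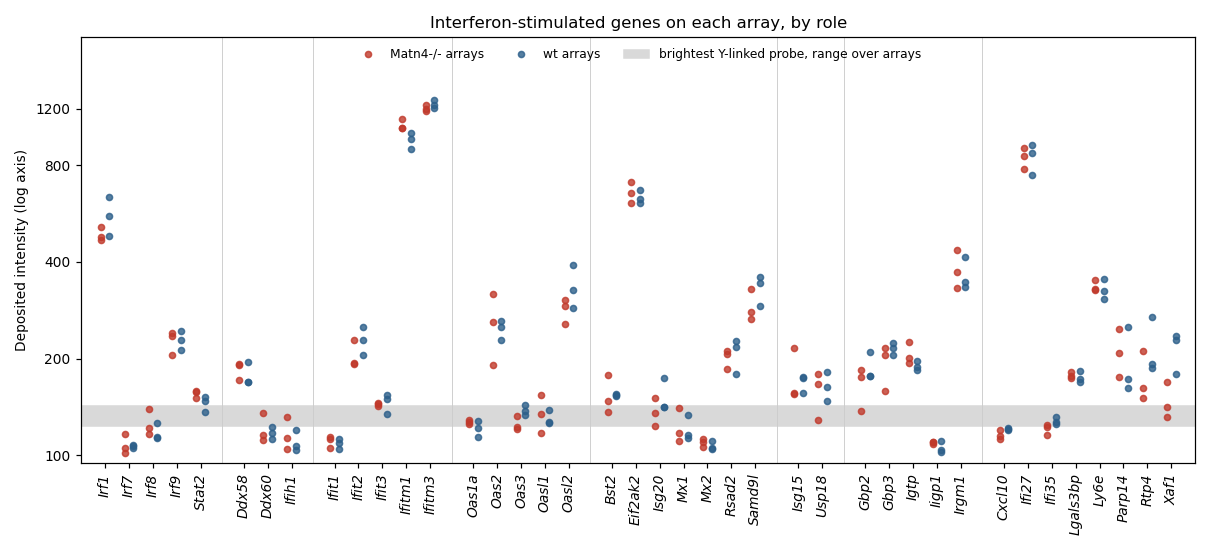
Deposited intensity (log axis) of the brightest probe of the 40 interferon-stimulated genes with a probe, grouped by role, with 1 point for each Matn4-/- array (red, left) and each wt array (blue, right). The grey band runs from 124 to 142, the brightest Y-linked probe over the 6 arrays. Most genes with points well above the band have them there in both genotypes. Intensities of different probes are not comparable as RNA levels.

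Most of the set was detectable in both genotypes. 22 of the 40 genes (55.0%) were above background on all 6 arrays, against 5728 of 21946 genes with a symbol (26.1%). A further 4 were above it on 5 arrays and 8 on 1 to 4. The remaining 6, Ifit1, Irf7, Mx2, Iigp1, Ddx60 and Cxcl10, were above it on none by their brightest probe, with intensities of 102 to 136 in Matn4-/- and 103 to 123 in wt. A second Cxcl10 probe was above background on Matn4-/- replicate 3 alone, at 139. By array, 25, 25 and 30 genes were above background on Matn4-/- replicates 1 to 3, against 31, 25 and 28 on wt replicates 1 to 3. A similar number was above background on all arrays of a genotype, 23 genes in Matn4-/- and 25 in wt, and the same count over all genes was not made. At background means not detectable on these probes, not absent from the cells. The plot of deposited intensities by role shows the split within families, with Ifit2 above the band, Ifit3 at its upper edge or above except for 1 wt value inside it, and Ifit1 under it.

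Between the genotypes, no member passed the test. The fit covered 12764 genes and called 7 of them (0.0548%) at an adjusted p below 0.05 (limma with Benjamini-Hochberg adjustment), 1 higher and 6 lower in Matn4-/-. Of the 34 members tested, 0 were called by limma, and 1 (Xaf1) had an unadjusted p below 0.05, against 5.59% of all genes tested (3.81% on the lower side, where Xaf1 lay). 16 members were numerically higher and 18 lower in Matn4-/-, where 46.7% of all genes tested were higher, with a median log2 difference of -0.01, the same to this precision as the -0.01 of all genes. The members' differences ran from -0.54 to 0.16. Values below are deposited intensities in the order of replicates 1, 2 and 3. Means carry the SD over 3 arrays, log2 differences are Matn4-/- minus wt with their SE, and adjusted p-values are limma's over all 12764 genes.

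Among the transcription factors, Irf1, Irf9 and Stat2 were detectable and the other members were at or near background. Irf1, an early activator of the interferon gamma response, read 512, 477 and 469 in Matn4-/- and 482, 557 and 637 in wt. These average 486 ± 22.8 in Matn4-/- and 559 ± 77.6 in wt, a log2 difference of -0.19 (SE 0.11) with an adjusted p of 0.928. The groups overlapped because wt replicate 1 lay among the Matn4-/- arrays. The difference was -0.30 without that array and -0.09 without wt replicate 3, and a second Irf1 probe above background on all 6 arrays gave -0.01. Irf9, the DNA-binding subunit of ISGF3, read 235, 206 and 240.2 in Matn4-/- and 244, 228 and 214 in wt, a log2 difference of -0.01 (SE 0.09) with an adjusted p of 0.999. Stat2, the partner of Irf9 in that complex, read 159, 151 and 157 in Matn4-/- and 152, 136 and 147 in wt, and was above background on all 3 Matn4-/- and 2 of the 3 wt arrays. Its log2 difference was 0.10 (SE 0.08, adjusted p 0.99), with wt replicate 1 inside the Matn4-/- range. Irf8, a factor of myeloid and dendritic cell development, was above background on 1 array, Matn4-/- replicate 3, and read 122, 117 and 139 in Matn4-/- and 113, 114 and 126 in wt, an adjusted p of 0.996. Irf7, which amplifies type I interferon production, was above background on no array.

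Of Ddx58, Ifih1 and Ddx60, grouped here as sensors of viral RNA, Ddx58 was the one above background on all 6 arrays. It encodes RIG-I, which recognises short double-stranded RNA, and read 172, 192 and 193 in Matn4-/- and 195, 169.6 and 169 in wt. The log2 difference was 0.06 (SE 0.09, adjusted p 0.999), and the highest wt array exceeded every Matn4-/- array. Ifih1, which encodes the long-RNA sensor MDA5, was above background on Matn4-/- replicate 3 alone, and Ddx60, a helicase linked to RIG-I signalling, on none.

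The IFITM membrane proteins, which block the entry of enveloped viruses, had probes far above background in both genotypes. Ifitm3 read 1235, 1177 and 1194 in Matn4-/- and 1205, 1273 and 1233 in wt, with a log2 difference of -0.04 (SE 0.07, adjusted p 0.999). Ifitm1 read 1044, 1115 and 1042 in Matn4-/- and 1007, 897 and 962 in wt. Its means were 1067 ± 41.6 in Matn4-/- and 955 ± 55.2 in wt, a log2 difference of 0.16 (SE 0.08) with an adjusted p of 0.924. Every Matn4-/- array was above every wt array, the one member in which this was so, but its 95% interval ran from -0.02 to 0.34. 2 further Ifitm1 probes above background on all 6 arrays leaned the other way, as given below.

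The IFIT proteins bind viral RNA and stop its translation. Ifit2 read 228, 194 and 192 in Matn4-/- and 251, 229 and 206 in wt, a log2 difference of -0.16 (SE 0.10, adjusted p 0.97). Ifit3 read 143, 145 and 146 in Matn4-/- and 150.0, 154 and 135 in wt, with a log2 difference of -0.02 (SE 0.08, adjusted p 0.999). Both pairs of groups overlapped, and the Ifit3 levels lay close to the brightest Y-linked probe. Ifit1, with the same ISRE core upstream, was not detectable.

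Oligoadenylate synthetases make the second messenger that activates RNase L, an enzyme that cuts cellular and viral RNA. Oasl2, a relative in this family, read 291, 305 and 257 in Matn4-/- and 327, 391 and 288 in wt, which averaged 285 ± 24.7 in Matn4-/- and 335 ± 52.1 in wt. The log2 difference was -0.23 (SE 0.12, adjusted p 0.928), and wt replicate 3 lay inside the Matn4-/- range. It was -0.11 without wt replicate 2, and a second Oasl2 probe above background on all 6 arrays gave 0.03. Oas2 read 190.5, 318 and 261 in Matn4-/- and 229, 263 and 251 in wt. Its log2 difference was 0.02 (SE 0.17, adjusted p 0.999), and the Matn4-/- arrays held both its lowest and its highest value. Oas3 read 121, 132 and 122 in Matn4-/-, at background on each array, and 138, 134 and 144 in wt, above background on 2 of the 3 arrays. The groups did not overlap, and the wt level was at least 1.04-fold higher by the background bound (adjusted p 0.928). A second Oas3 probe, above background on 1 array, gave groups apart in the opposite direction, with 132, 130.3 and 128 in Matn4-/- and 115, 123 and 119 in wt (log2 difference 0.13). The bound sets the mean of the brighter group against the background level of the dimmer one. Oas1a read 127, 125 and 129 in Matn4-/- and 114, 128 and 122 in wt, above background on 1 array, and Oasl1 was above background on 1 array of each genotype.

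Other antiviral effectors showed the same absence of a called difference. Eif2ak2 encodes the kinase PKR, which halts translation on double-stranded RNA, and read 653, 611 and 709 in Matn4-/- and 608, 670.4 and 626 in wt (log2 difference 0.05, SE 0.08). Rsad2 encodes viperin, an enzyme against viral replication, and read 185, 211 and 206 in Matn4-/- and 218, 227 and 179 in wt (log2 difference -0.04, SE 0.11). Bst2, or tetherin, which holds budding viruses at the cell surface, read 148, 178 and 137 in Matn4-/- and 153, 154 and 155 in wt (log2 difference -0.01, SE 0.10). All 3 had an adjusted p of 0.999, and the Matn4-/- arrays lay on both sides of the closely spaced wt arrays for Bst2. Samd9l, a growth-restricting gene of haematopoietic cells, read 279, 267 and 330.0 in Matn4-/- and 292, 344 and 358 in wt. Its mean was 292 ± 33.6 in Matn4-/- and 331 ± 34.8 in wt, a log2 difference of -0.18 (SE 0.11, adjusted p 0.953). Isg20, an exonuclease that degrades viral RNA, read 135, 123 and 151 in Matn4-/- and 174, 142 and 141 in wt, above background on 1 Matn4-/- and 2 wt arrays (adjusted p 0.982). Mx1, a GTPase that traps viral particles, was above background on 1 wt array, and Mx2 on none.

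The ISG15 system attaches a ubiquitin-like protein to other proteins. Isg15, the modifier itself, read 155, 216 and 156 in Matn4-/- and 175, 156 and 174 in wt, with a log2 difference of 0.05 (SE 0.13, adjusted p 0.999). Its Matn4-/- mean of 176 ± 34.7 rested on replicate 2, against 168 ± 10.6 in wt. Usp18, which removes ISG15 and damps receptor signalling, was above background on 2 Matn4-/- and all 3 wt arrays, with 167, 129 and 179 in Matn4-/- and 182, 147 and 163 in wt.

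Interferon-inducible GTPases attack the vacuoles that shelter intracellular pathogens. Irgm1, which in mice is needed to keep haematopoietic stem cells quiescent, read 373, 333 and 435 in Matn4-/- and 346, 414 and 333 in wt (log2 difference 0.06, SE 0.12). Igtp, or Irgm3, read 225, 201 and 194 in Matn4-/- and 184, 189 and 196 in wt, a log2 difference of 0.12 (SE 0.08, adjusted p 0.98), with wt replicate 3 inside the Matn4-/- range. Gbp3 read 216, 206 and 158 in Matn4-/- and 224, 215 and 205 in wt, a log2 difference of -0.16 (SE 0.12, adjusted p 0.986). Of these arrays Matn4-/- replicate 3 was the lowest for Gbp3 and the highest for Irgm1, and without it the Gbp3 difference was -0.03. Gbp2 read 137, 176 and 184 in Matn4-/- and 210.0, 176 and 176 in wt, above background on 2 Matn4-/- and 3 wt arrays (adjusted p 0.98). Iigp1 was at background throughout under its own name, and a second probe annotated to it under an older name was above background on 1 array, Matn4-/- replicate 3, with 127, 127 and 135 in Matn4-/- and 117, 119 and 127 in wt.

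Xaf1 had the smallest p of the set. Its product binds the caspase inhibitor XIAP and promotes cell death. The probe read 132, 169 and 141 in Matn4-/- and 235, 179.8 and 229 in wt, and was above background on 2 of 3 Matn4-/- arrays and all 3 wt arrays. The means were 147 ± 19.3 in Matn4-/- and 215 ± 30.4 in wt, and no Matn4-/- array reached the lowest wt array. The log2 difference was -0.54 (SE 0.13, 95% interval -0.84 to -0.25). Its unadjusted p was 0.00258 in the limma fit, and its adjusted p of 0.432 did not pass. Over every other setting tried, the log2 difference lay between -1.24 and -0.47 and the adjusted p between 0.364 and 0.885. The value of -1.24 came from subtracting the median of the Y-linked probes on each array.

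Rtp4, a chaperone that in mice damps type I interferon responses, had the next largest difference and a wide spread. It read 151, 162 and 212 in Matn4-/- and 193, 187 and 270.4 in wt, with replicate 3 highest in both genotypes. The log2 difference was -0.31 (SE 0.17, 95% interval -0.69 to 0.08, adjusted p 0.928), and it was -0.14 without wt replicate 3 and -0.45 without Matn4-/- replicate 3. A second probe annotated to Rtp4 under an older name read 114, 122 and 131 in Matn4-/- and 134, 121 and 150 in wt. That probe was above background on 1 Matn4-/- and 2 wt arrays, and its groups overlapped. Parp14, an ADP-ribosyltransferase, read 176, 247 and 208 in Matn4-/- and 162, 251 and 173 in wt, with replicate 2 highest in both (log2 difference 0.12, SE 0.18, adjusted p 0.999). These genes had the largest SDs within a genotype on the log2 scale, 0.30 for Parp14 and 0.28 for Rtp4. Ifi35, an interferon-induced leucine zipper protein, read 124, 122 and 115 in Matn4-/- and 131, 127 and 125 in wt. The Ifi35 groups did not overlap, but only wt replicate 1 was above background, so no fold is given.

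The remaining detectable members differed little. Ifi27, an interferon-induced membrane protein, read 852, 777 and 903 in Matn4-/- and 927, 743 and 873 in wt, with means of 844 ± 63.3 in Matn4-/- and 848 ± 94.5 in wt. Ly6e, a surface protein that restricts coronavirus entry, read 352, 327 and 329 in Matn4-/- and 324, 354 and 306 in wt (log2 difference 0.04, SE 0.08). Lgals3bp, a secreted glycoprotein that binds galectins, read 181, 174 and 177 in Matn4-/- and 183, 173 and 169 in wt (log2 difference 0.02, SE 0.07). All 3 had overlapping groups and an adjusted p of 0.999. The 10 members outside the naming rule (Ifit1, Ifih1, Irf7, Oasl1, Mx1, Mx2, Usp18, Iigp1, Ddx60 and Cxcl10) read 102 to 179.0 in Matn4-/- and 103 to 182 in wt. Their log2 differences ran from -0.06 to 0.07, and the smallest unadjusted p among them was 0.316 by limma, in a fit without the brightness filter.

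**Figure D2:**
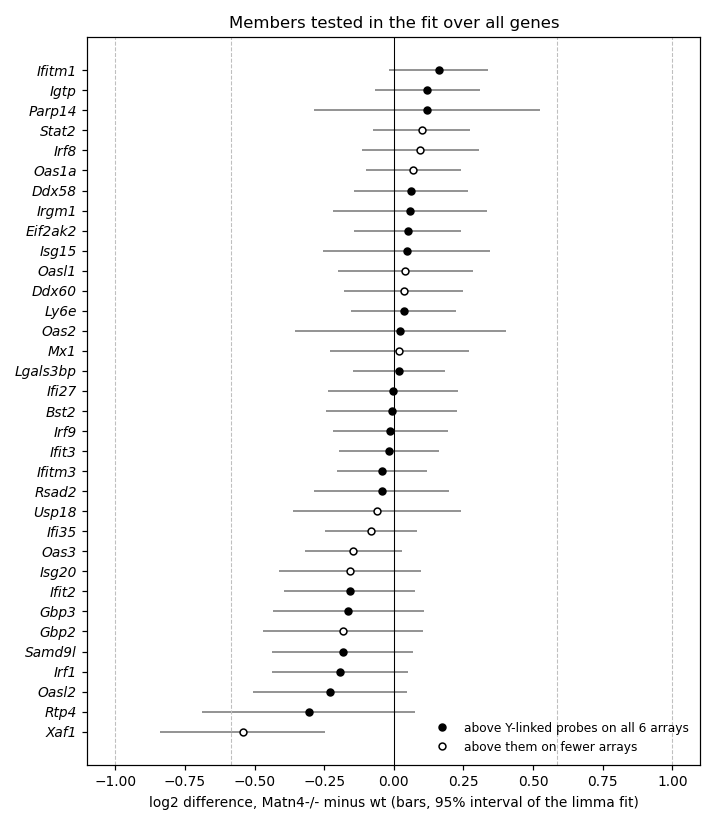
Log2 difference (Matn4-/- minus wt) of the 34 interferon-stimulated genes tested, with bars for the 95% interval of the limma fit and dashed lines at 1.5-fold and 2-fold. Filled points were above background on all 6 arrays and open points on fewer. Every interval except that of Xaf1 includes 0, and those of Xaf1 and Rtp4 cross the 1.5-fold line.

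The size of change these arrays could still hide is given by the intervals. The 95% interval lay within 1.5-fold either way for 32 of the 34 members, all but Rtp4 and Xaf1, against 94.9% of all genes tested, and within 2-fold for all 34, against 99.4%. Because the background was left in the values, these limits hold for the deposited intensities, which understate the change of dim genes. In another setting, the median of each array's Y-linked probes (103 to 111) was subtracted, 16 was added and values were held at 16 or more. The interval then stayed within 1.5-fold for 7 of the members and within 2-fold for 26. The median SE was 0.10 on the log2 scale for the members and 0.09 for all genes. The groups did not overlap in 4 members, Xaf1, Oas3 and Ifi35 lower and Ifitm1 higher in Matn4-/-, against 10.5% of all genes tested (6.22% lower and 4.29% higher), a share near that background. For Oas3 and Ifitm1 other probes differed in the opposite direction. Over the 22 members above background on all 6 arrays, 10 were numerically higher and 12 lower, with a median log2 difference of -0.01. Only Ifih1 among the members lies on chromosome 2 with Matn4, 102 Mb from it, and none lies on chromosome 1, which holds the Ptprc (CD45) alleles that differed between the donors.

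Further probes of the same genes did not single out a member. Xaf1 had only 1 probe, so it could not be checked in this way. Besides the brightest probes there were 26 others, of which 19 passed the brightness filter, and 0 of those 19 had an unadjusted p below 0.05 when each probe was tested alone with limma (smallest 0.104). 10 of the other probes, in 8 genes, were above background on all 6 arrays. Of these 10, 4 shared the sign of the brightest probe's difference and 6 did not. For Ifitm1, the second probe read 673, 687 and 737 in Matn4-/- and 708, 760.0 and 692 in wt (log2 difference -0.04), and the third read 143, 147 and 150.5 in Matn4-/- and 154, 174 and 148 in wt (-0.11). The higher Ifitm1 intensity in Matn4-/- was thus seen on its brightest probe and not on these. The second Irf9 probe read 190.3, 253 and 269.9 in Matn4-/- and 215, 191 and 195 in wt, a log2 difference of 0.23 where the brightest probe gave -0.01. The second Gbp3 probe leaned the same way as the brightest, with 152, 152 and 132 in Matn4-/- and 158, 159 and 149 in wt (-0.10). The probes' sequences were not used here, so whether probes of families with close copies, such as the Ifit, Oas and Gbp genes, also bind a relative was not tested.

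**Figure D3:**
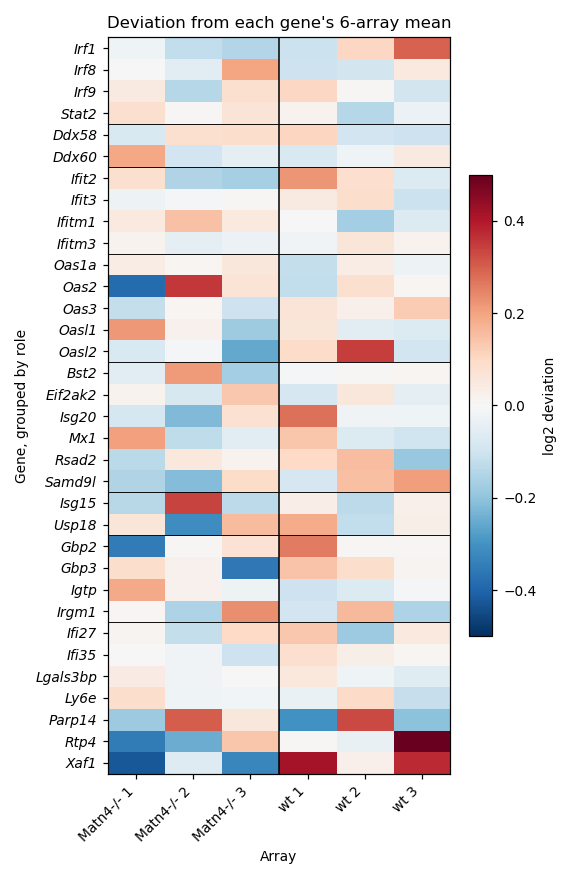
Log2 deviation of each of the 34 tested interferon-stimulated genes (rows, grouped by role) from its mean over the 6 arrays, with the Matn4-/- arrays left of the line and the wt arrays right of it. Red is above and blue below the gene's own mean. The column of wt replicate 1 holds the highest value of 11 genes, and no column is red or blue throughout.

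Array by array, the members did not move as a block. Matn4-/- replicates 1, 2 and 3 held the highest value of 5, 4 and 4 of the 34 members, and wt replicates 1, 2 and 3 that of 11, 6 and 4. The share of 32.4% for wt replicate 1 compares with 14.6% of all genes tested. The 11 were Ddx58, Gbp2, Gbp3, Ifi27, Ifi35, Ifit2, Irf9, Isg20, Lgals3bp, Usp18 and Xaf1. The median deviation of the members on that array was nevertheless small, 0.04 on the log2 scale, and on the other arrays it lay between -0.02 and 0.02. For the 22 members above background on all 6 arrays, the median deviation was 0.07 on wt replicate 2 and -0.05 on wt replicate 3. On the other arrays it lay between -0.01 and 0.01. Bst2, Ifitm1, Isg15 and Oas2 were highest on Matn4-/- replicate 2. Matn4-/- replicate 3 held the lowest value of 7 of the 34 members, against 33.8% of all genes. The median SD within a genotype was 0.14 on the log2 scale for the members and 0.11 for all genes tested.

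The upstream pathway and a further set of interferon-stimulated genes were examined on the same arrays. This list held 79 genes, 76 with a probe, and 30 were above background on all 6 arrays, where 26.1% of all genes with a symbol were. Of these 30, 19 were among the 43 further interferon-stimulated genes with a probe, and the rest were signalling genes. Of 57 tested, 0 were called by limma and 4 had an unadjusted p below 0.05 (Ifnar2, Irgm2, Cmpk2 and Trim30a), against 5.59% of all genes. By direction, 16 were numerically higher and 41 lower in Matn4-/-, with a median log2 difference of -0.05. Ly6a, which encodes Sca-1, was not analysed here.

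The ligands were at background, apart from an Ifna1 probe above it on 3 arrays, and Ifnb1, Ifng, Ifna2 and Ifna4 were above it on none. Among the receptors, the Ifnar1 probe was at background on every array, with 96 to 111 in Matn4-/- and 96.3 to 100.3 in wt. Ifnar2, the other subunit of the type I receptor, read 179, 144 and 171 in Matn4-/- and 179, 215 and 192 in wt. Its means were 165 ± 18.6 in Matn4-/- and 196 ± 18.4 in wt, a log2 difference of -0.25 (SE 0.11, adjusted p 0.884), and the groups met at 179 without overlapping. Ifngr1, the binding subunit of the interferon gamma receptor, read 228, 170.5 and 159 in Matn4-/- and 204, 281 and 214 in wt (log2 difference -0.33, SE 0.16, adjusted p 0.924). Ifngr2, its signalling partner, read 248, 303 and 281 in Matn4-/- and 302, 266 and 317 in wt (log2 difference -0.09, SE 0.10, adjusted p 0.999). All 3 receptor subunits tested were numerically lower in Matn4-/-, and none passed. The kinases sat at the edge of the background, Jak1 with 116, 137 and 136 in Matn4-/- and 127, 148 and 127 in wt, and Tyk2 with 127, 131 and 148 in Matn4-/- and 131, 146 and 133 in wt.

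Across the 21 tested genes of signalling, from ligands and receptors to sensors and feedback inhibitors, 2 were numerically higher and 19 lower in Matn4-/- (90.5%), against 53.3% of all genes lower. Over the other settings the count lower lay between 15 (without Matn4-/- replicate 1) and 20 (without wt replicate 3). The 15 were 71.4%, when 59.0% of all genes were lower, and the 20 were 95.2%, when 52.6% were. These counts describe small differences, none of them called. Of the 36 further interferon-stimulated genes tested, 14 were higher and 22 lower, with a median log2 difference of -0.02. Irgm2, a GTPase related to Irgm1, read 278, 325 and 324 in Matn4-/- and 422, 371 and 441 in wt. Its means were 309 ± 26.9 in Matn4-/- and 411 ± 36.1 in wt, a log2 difference of -0.41 (SE 0.10, adjusted p 0.432), and the groups did not overlap. Trim30a, a ubiquitin ligase family member that in mice restrains innate immune signalling, read 169, 154 and 203 in Matn4-/- and 223, 230.5 and 215 in wt (log2 difference -0.36, SE 0.11, adjusted p 0.664). Cmpk2, a mitochondrial nucleotide kinase and the genomic neighbour of Rsad2, read 146, 162 and 156 in Matn4-/- and 180.2, 175 and 206 in wt (log2 difference -0.27, SE 0.09, adjusted p 0.748). In these 3 genes, named for their small p, every Matn4-/- array was below every wt array, while the related or neighbouring members Irgm1 and Rsad2 had overlapping groups. Over the 57 listed genes tested, the groups did not overlap in 6 (Ifnar2, Ptpn6, Irgm2, Cmpk2, Trim30a and Daxx), all 6 lower in Matn4-/-. The share over all genes tested was 10.5% in either direction, near that of this list, and 6.22% on the lower side.

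**Figure D4:**
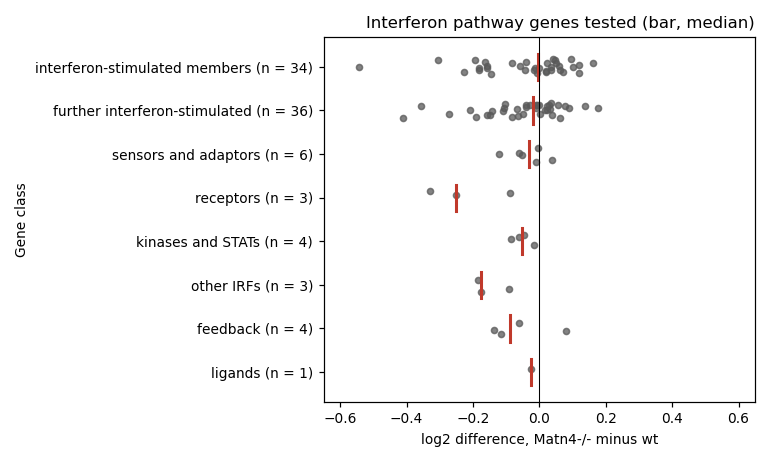
Log2 difference (Matn4-/- minus wt) of each tested gene, in rows for the 34 interferon-stimulated members, the 36 further interferon-stimulated genes and the classes of signalling genes, with a red bar at each row's median. The members centre near 0 (median -0.01), and all 3 receptor subunits lie left of 0. No gene shown was called.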

How the data were processed

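For each of 6 arrays the authors deposited linear intensity values, 1 for every probe. The sources used here do not say how these were normalized or how the background was treated. Array medians of 118.0 to 120.4 were alike, and the background was still in the values. RNA was amplified from 2.5 ng, per the labels' protocols. A non-normalized table was left out, since no label fits the names of its 12 columns of values.

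Of 46237 probes, 35784 had 1 gene symbol, 0 had several and 10453 had none. Symbols were updated through Entrez IDs (28620 probes) or accessions (2637), and 4527 kept the platform's symbol. The log2 intensities were fitted with limma 3.58.1 (R 4.3.3, lmFit and eBayes), without further scaling, on the brighter 50% of probes (23118) and the brightest kept probe of each gene, which left 12764 genes, with Benjamini-Hochberg adjustment and a threshold of 0.05. Background was the brightest of 12 Y-linked probes on each array. For background subtraction, the median of these probes was subtracted instead, with 16 added and values held at 16 or more. Members above background on all 6 arrays and the 8 others with the smallest p without the filter were named with their values on each array. From the pathway list the receptors, Jak1, Tyk2, Ly6a and the 4 genes with the smallest p were named, and some listed items are not reported here. The members, lists and tests were chosen with earlier results of these data known. Precision is limited by the number of arrays. Alternatives covered the filter, probe choice, scaling, background, variance model, array weights, a replicate block and leaving out each array.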

Additional observations from a re-analysis of the deposited data

How the results depend on the processing

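Under all 17 alternative settings, 0 of the members tested and 0 of the pathway genes were called by limma, with 1 to 3 members at an unadjusted p below 0.05. The count over all genes was 7, against 2 after background subtraction and 3 to 7 when single arrays were left out, the lowest being 3 when Matn4-/- replicate 1 and 4 when wt replicate 1 was dropped. The members' median log2 difference was -0.031 after background subtraction, where that of all genes was -0.084. It was 0.016 with cyclic loess (all genes 0.0039) and 0.0155 without the filter (all genes 0.010). With single arrays left out, the members' median lay between -0.025 and 0.0036, and that of all genes between -0.026 and 0.015. With a replicate block, 9 genes and no member were called, and Oasl2, Rtp4 and Xaf1 had an unadjusted p below 0.05. Deviations of arrays with the same number correlated at 0.02, 0.06 and 0.06, and those with different numbers at -0.08 to 0.02. Correlations this small cannot decide whether the numbers pair the samples. The main fit used no pairing because no label says that a number marks a shared recipient. The number of members above background on all 6 arrays was 22, and 20 to 25 under other definitions of background or with single arrays left out. Of the 30 members named by rule, 18 kept their sign under all 17 settings and 12 turned in at least 1. The largest main-fit log2 difference among those 12 was 0.12, for Parp14. The log2 difference turned to -0.014 for Irgm1 and 0.080 for Bst2 with array weights, to 0.0067 for Ifit3, 0.020 for Irf9 and 0.021 for Bst2 with cyclic loess, to 0.0067 for Irf9 and 0.0068 for Ifi27 with quantile normalization, and to -0.020 for Oas2 after background subtraction. With single arrays left out, it ranged from -0.0025 to 0.31 for Parp14, -0.0062 to 0.10 for Eif2ak2, -0.042 to 0.15 for Irgm1, -0.013 to 0.091 for Ly6e, -0.15 to 0.023 for Rsad2, -0.11 to 0.13 for Isg15, -0.0060 to 0.050 for Lgals3bp, -0.075 to 0.022 for Ifit3, -0.061 to 0.056 for Irf9, -0.15 to 0.22 for Oas2, -0.12 to 0.076 for Bst2 and -0.095 to 0.065 for Ifi27. The cause of these turns was not tested. The direction counts under every setting were added after the data were seen: 15 to 21 members were lower in Matn4-/-, and 16 of the signalling genes without Matn4-/- replicate 3, when 44.3% of all genes were lower. Of the further interferon-stimulated genes, 16 (without wt replicate 3) to 25 were lower. Small changes of dim genes were limited by the signal over background.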
